A study of Mus musculus with 12 samples.

Results

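Siglecs are cell-surface lectins of the immunoglobulin superfamily that bind sialic acid, the sugar that caps many glycans of vertebrate cells. They were followed here in PUER cells, mouse myeloid progenitors without endogenous PU.1, into which a PU.1 to estrogen receptor fusion was introduced. The members are the features annotated to a single gene whose symbol begins with Siglec or is Cd33 or Cd22, present on both array designs of the study. The rule gave 7 genes of the 13356 that both designs measure: Siglec1, Siglece, Siglecf, Siglecg, Siglech, Cd33 and Cd22. They are read by 10 of the 45037 probe sets of the Mouse Genome 430 2.0 arrays and by 7 of the 23238 transcript clusters of the Exon 1.0 ST arrays, and every one of these features was tested.

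The study has 12 arrays in 4 groups of 3. PUER cells were given 100 nM 4-hydroxytamoxifen (OHT), which activates the fusion protein, and RNA was taken after 24 h; the 0 h cells had no OHT. Each condition was measured on both designs. Cells of all groups grew with interleukin-3 (5 ng/ml), puromycin and serum, and all come from this 1 line, so both conditions carry the loss of the cells' own PU.1 and the fusion. Whether a group's 3 arrays stand for separate cultures is not recorded, so p-values measure the spread between arrays, which may be technical.

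In most Siglecs an outer V-set domain holds the sialic acid, and many carry tyrosine motifs (ITIMs) in the cytoplasmic tail that recruit the phosphatases SHP-1 and SHP-2 and dampen activating receptors. Siglec1 (sialoadhesin, CD169) has a long ectodomain, no ITIM, and marks certain tissue macrophages. Siglec-H lacks ITIMs and pairs with the activating adaptor DAP12. Siglec-E is found on mouse neutrophils, monocytes and macrophages, Siglec-F on eosinophils and alveolar macrophages, Siglec-G and CD22 on B cells, and CD33 on myeloid cells.

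The direction of a change depended on the design. Among the 3770 genes called on both, 3713 moved oppositely on the 430 and exon arrays and 57 moved alike, and the log2 changes of all 13356 shared genes correlated at r = -0.861 (across genes, which are not independent replicates). A list of 6 macrophage markers was called in full, 6 of 6 higher in the 430 arrays labelled 24 h and 6 of 6 lower in the exon arrays labelled 24 h. Of all genes 26.0% were called higher on the 430 arrays and 10.8% lower on the exon arrays. Spi1, the gene of PU.1, had mean 430 signals of 7.36 log2 units at 24 h and 8.05 at 0 h and mean exon signals of 12.12 and 11.85; OHT acts on the fusion as a protein, so these levels do not check the labels. Groups are therefore named as the arrays are labelled. Were the exon labels exchanged, the sizes of all exon changes would stand and their signs would turn. Values are log2 signals, each design is tested within its own table, a feature is called at an adjusted p under 0.05 (limma, Benjamini-Hochberg over all features of the design), and levels of different features are not compared with each other.

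Promoter windows of Siglece, Siglecf, Siglecg, Siglech, Cd33 and Cd22, all on chromosome 7, came from RefSeq (build GRCm38.p6). These 6 of the 7 genes matched, with 7 windows, since Siglecg has a pair of starts. PU.1 belongs to the ETS family, whose members recognise GGAA, so the 250 bases before each start were searched for GGAA and for the longer GAGGAA and GAGGAAGT, on both strands. The GAGGAA search was added after the windows were read. The 3 windows below are shown because Siglece and Siglecf are among the members with the largest changes while Cd33 was not called on either design, and because Siglecf and Cd33 share a stretch. Each is written 5' to 3' on the strand of its gene, and the capitals mark GGAA or its reverse complement TTCC. They lie at chr7:43660162-43660411 (minus strand), chr7:43351091-43351340 (plus strand) and chr7:43533172-43533421 (minus strand).
Siglece: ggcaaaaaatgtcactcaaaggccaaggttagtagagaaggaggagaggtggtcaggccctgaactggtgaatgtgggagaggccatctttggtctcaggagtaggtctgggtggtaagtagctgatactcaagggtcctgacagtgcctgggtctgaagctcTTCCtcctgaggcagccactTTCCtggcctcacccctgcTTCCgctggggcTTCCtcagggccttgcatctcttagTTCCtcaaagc
Siglecf: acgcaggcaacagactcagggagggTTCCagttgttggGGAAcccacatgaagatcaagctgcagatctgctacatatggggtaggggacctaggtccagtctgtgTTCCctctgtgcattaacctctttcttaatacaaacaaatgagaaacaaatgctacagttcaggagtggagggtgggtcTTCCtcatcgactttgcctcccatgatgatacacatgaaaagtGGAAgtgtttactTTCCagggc
Cd33: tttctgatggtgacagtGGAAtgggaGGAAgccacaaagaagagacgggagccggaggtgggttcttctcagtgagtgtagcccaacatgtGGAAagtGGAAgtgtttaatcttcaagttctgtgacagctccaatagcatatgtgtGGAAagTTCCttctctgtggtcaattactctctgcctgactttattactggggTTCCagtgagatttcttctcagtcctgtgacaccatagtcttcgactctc

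GGAA is in 93.4% of all 32851 windows of this length, with a median of 3 sites a window, so most promoters hold it. Siglece had 5 GGAA sites, Siglecf 6 and Cd33 7, while Cd22 had 5, Siglech 4, the first Siglecg window 3 and the second 0. GAGGAA, found in 23.3% of all windows, occurred 3 times in the Siglece window, at 87, 36 and 11 bases before the start, each time as its reverse complement TTCCTC. Windows with at least 3 such sites make up 0.429% of the total. This cut-off equals the Siglece count, the highest of the 7 windows, and was set after they were read, so the share overstates how unusual that window is. Siglecf has 1 (65 bases before the start), Cd33 has 1 (226) and the first Siglecg window has 2 (241 and 212), while Cd22, Siglech and the second Siglecg window have 0. GAGGAAGT, in 2.44% of all windows, is in none of the 7. The longest run shared by windows of different member genes is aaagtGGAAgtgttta, 16 bases with GGAA in capitals, which begins 27 bases before the start of Siglecf and 157 bases before that of Cd33. These matches are letters in a window and were not tested as binding sites.

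On the 430 arrays the Siglecs were higher in the arrays labelled 24 h wherever they were called. Among their 10 probe sets limma called 8 higher and 0 lower (0 lower at an unadjusted p under 0.05 too), against 22.3% higher and 23.5% lower over the whole array. By their brightest probe sets 6 of the 7 genes were called, all higher, where 26.0% of all genes were called higher and 26.1% lower. The 24 h and 0 h values did not overlap for 8 of 10, where 54.5% of all probe sets do not overlap, and 5 were called with a log2 change of at least 1, where 3.37% of all are. Siglecf, Cd22 and Siglece carried the large changes, at 12.5-fold, 5.41-fold and 4.11-fold. The median change over the 10 probe sets was 0.93 log2 units, against 0.05 over all probe sets.

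Siglecf encodes a Siglec with an ITIM that is found on eosinophils and alveolar macrophages. Its log2 signals were 7.13, 7.27 and 7.36 in the 430 arrays labelled 24 h, against 3.76, 3.65 and 3.41 in those labelled 0 h. The groups were far apart, and the 0 h mean of 3.61 lies low on the array, with 12.5% of probe sets dimmer, so the fold may understate the change. The log2 change was 3.65 ± 0.101 (SE, adjusted p = 2.14e-08, limma), the largest among the Siglec probe sets. Of 5 measured eosinophil markers 1 was called: Epx, eosinophil peroxidase, was higher (0.41, adjusted p = 0.00737), while Prg2, Ccr3 and Prg3 differed by 0.08, 0.06 and 0.04 and Il5ra by -0.21, none of them called. The summed signal of these 5 genes lay between 6.60 and 6.73 log2 units at 24 h and between 6.52 and 6.62 at 0 h. All 6 macrophage markers were called higher on these arrays (median change 3.21), and their part in the result was not tested. Of all genes 26.0% were called higher and 26.1% lower on the 430 arrays.

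Siglece, a myeloid inhibitory Siglec, gave 430 signals of 7.87, 7.87 and 7.83 at 24 h and of 5.62, 5.74 and 6.10 at 0 h. All arrays labelled 24 h were above all labelled 0 h, and the spread was wider at 0 h (SD 0.25) than at 24 h (SD 0.0216). The change was 2.04 ± 0.115 (SE, adjusted p = 1.30e-06, limma). Macrophage markers moved the same way on these arrays: the summed signal of the 6 marker genes was 12.24 to 12.32 log2 units at 24 h and 8.46 to 8.51 at 0 h, with a change of 6.30 ± 0.244 for Adgre1 (F4/80) and of 5.41 ± 0.0872 for Mertk (SE), and their part in the result was not tested. In bulk RNA, more cells of a type and more RNA per cell cannot be told apart.

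Cd22, an inhibitory Siglec best known as a B-cell co-receptor, was read by a pair of probe sets that moved together. The probe set 1419768_at gave 8.39, 8.20 and 8.17 at 24 h against 5.75, 5.69 and 6.01 at 0 h, a change of 2.44 ± 0.101 (SE, adjusted p = 2.06e-07, limma). The dimmer 1419769_at gave 5.77, 5.91 and 5.69 against 3.94, 3.55 and 4.04, a change of 1.94 ± 0.125 (adjusted p = 2.79e-06). The groups overlapped in neither. Of 5 measured B-cell markers, Cd79a, Cd79b, Ms4a1, Pax5 and Ebf1, limma called 0 on either design at the adjusted threshold; at an unadjusted p under 0.05 it called 1 on the 430 arrays (Ebf1) and 0 on the exon arrays. Their summed signal on the 430 arrays was 7.54 to 7.62 log2 units at 24 h and 7.46 to 7.54 at 0 h, and their largest change was 0.22, for Ebf1. At the adjusted threshold 26.0% of all genes were higher and 26.1% lower on the 430 arrays, and 19.3% and 10.8% on the exon arrays.

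Siglecg, which restrains B-1 cells in mice and binds CD24, changed less on the 430 arrays. Its signals were 6.73, 6.66 and 6.86 at 24 h, against 5.72, 6.26 and 5.88 at 0 h, with no overlap. The change was 0.80 ± 0.131 (SE, adjusted p = 0.000999, limma), or 1.74-fold.

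Siglec1 was read by 3 probe sets that disagree in size. The probe set 1422161_at rose in the arrays labelled 24 h, with 5.12, 4.99 and 5.49 against 4.12, 4.20 and 4.11 at 0 h, a change of 1.06 ± 0.12 (SE, adjusted p = 0.0001, limma). The brightest, 1427706_a_at, gave 6.95, 6.83 and 6.92 against 6.54, 6.49 and 6.54, a change of 0.38 ± 0.0643 (adjusted p = 0.00124). The third, 1427668_at, overlapped between the groups, with 5.57, 5.15 and 5.77 against 5.02, 5.36 and 5.41, and was not called (0.24 ± 0.161, adjusted p = 0.266). It was called without 24 h array 2 (0.41, adjusted p = 0.0382). The annotation bases the 3 probe sets on different sequence records of the gene.

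Siglech and Cd33 had the smallest differences of the 7 genes. Siglech, best known from plasmacytoid dendritic cells, had 5.89, 6.0 and 5.90 at 24 h against 5.73, 5.79 and 5.59 at 0 h. Its change of 0.23 ± 0.0745 (SE, adjusted p = 0.0358, limma) is close to the threshold: it was no longer called without any 1 of the 24 h arrays 1, 2 and 3 or the 0 h arrays 1 and 3 (adjusted p = 0.0609 to 0.107), and was called without 0 h array 2 (0.034). The call was also lost with quantile normalization, with array medians removed and with the intensity trend (adjusted p = 0.129, 0.136 and 0.07). Of 5 measured plasmacytoid dendritic cell markers Ly6d was higher (0.28) and the transcription factor gene Tcf4 lower (-1.30), and 3 were not called. The shares of all genes were 26.0% higher and 26.1% lower. Cd33, a Siglec of myeloid cells, gave 9.15, 9.07 and 9.01 at 24 h against 8.99, 9.01 and 8.99 at 0 h, and the groups overlapped. Its change was 0.08 ± 0.0645 with a 95% interval of -0.07 to 0.22 (adjusted p = 0.367, limma). With quantile normalization Cd33 was called higher (0.22, adjusted p = 0.0254).

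**Figure D1:**
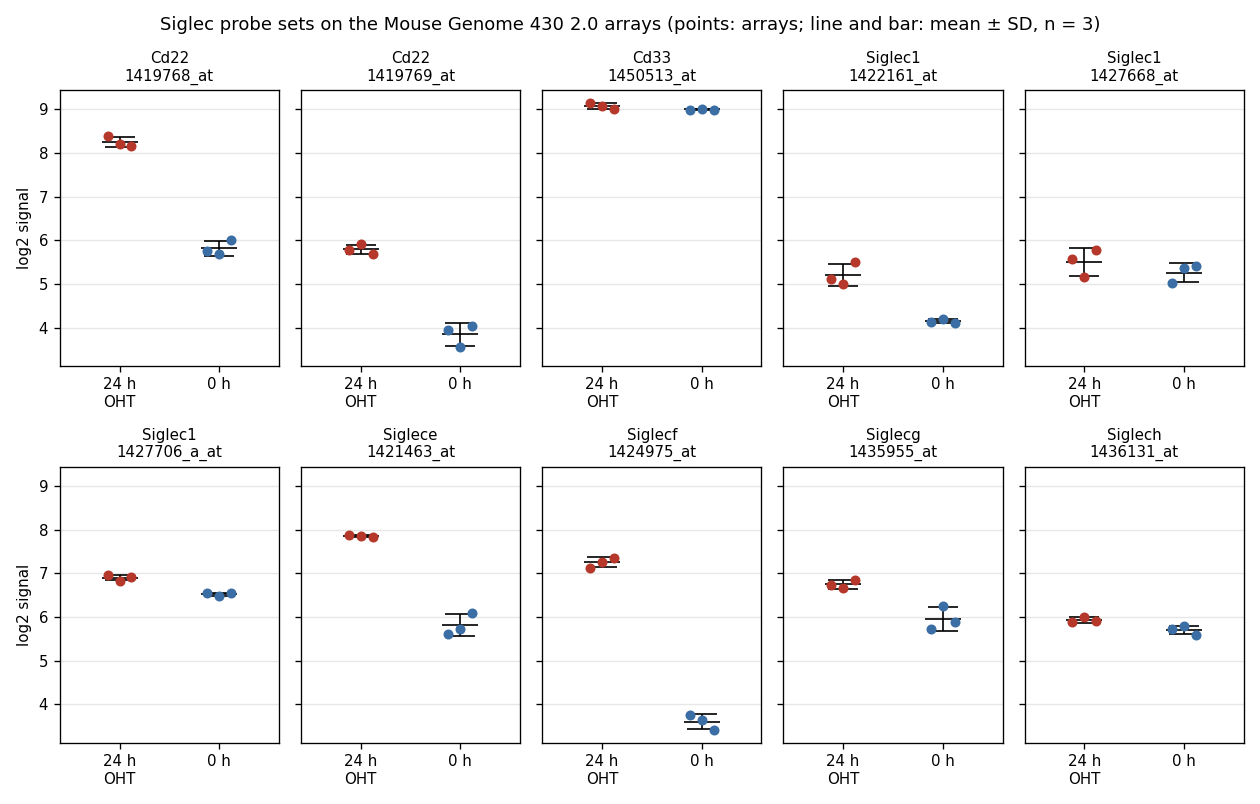
Log2 signal of the 10 Siglec probe sets on the 430 arrays, with 24 h OHT left and 0 h right in each panel; points are single arrays and the bars are the mean ± SD of 3 arrays. Siglecf, Siglece and both Cd22 probe sets show the widest gaps, and Cd33 lies near 9 in both groups.

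On the exon arrays the same genes were lower in the arrays labelled 24 h wherever they were called. Among their 7 transcript clusters limma called 5 lower and 0 higher (0 higher at an unadjusted p under 0.05 too), against 8.91% lower and 16.0% higher over the whole array. All 5 fell by at least 1 log2 unit, where 3.12% of all clusters did, Siglece 36.9-fold and Siglec1 11.9-fold lower. The groups did not overlap for 5 of 7, where 40.0% of all clusters do not overlap. The median change over the 7 was -1.57 log2 units, against 0.02 over all transcript clusters.

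Siglece had 4.45, 4.52 and 4.56 log2 units in the exon arrays labelled 24 h, against 9.77, 9.69 and 9.68 in those labelled 0 h. The arrays within each group differed by little (SD 0.0558 at 24 h and 0.0473 at 0 h). The change was -5.21 ± 0.0789 (SE, adjusted p = 3.32e-06, limma), the largest of any Siglec feature on either design. At 24 h 37.6% of transcript clusters were dimmer, and at 0 h 93.2% were. The summed signal of the 6 macrophage markers was 8.44 to 8.62 log2 units at 24 h and 10.98 to 11.08 at 0 h on these arrays, and its part in the result was not tested.

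Siglec1, the macrophage sialoadhesin, had exon signals of 5.01, 5.18 and 5.30 at 24 h, against 8.92, 8.65 and 8.65 at 0 h, a change of -3.58 ± 0.122 (SE, adjusted p = 2.72e-05, limma). No array of one label came near those of the other. Cd22 gave 4.06, 4.12 and 4.05 at 24 h and 6.16, 5.99 and 6.0 at 0 h, a change of -1.97 ± 0.0861 (adjusted p = 6.75e-05).

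Siglecf and Siglecg, which lie next to each other on chromosome 7, had smaller exon changes. Siglecf gave 4.71, 4.42 and 4.10 at 24 h against 6.05, 5.799 and 6.08 at 0 h, a change of -1.57 ± 0.176 (SE, adjusted p = 0.00173, limma). For Siglecg the signals were 5.04, 4.91 and 4.79 against 5.84, 5.86 and 6.13, a change of -1.03 ± 0.12 (adjusted p = 0.00195). In both genes the groups were separate, and the 24 h arrays of Siglecf had the widest spread of any group of Siglec exon values (SD 0.307). Eosinophil markers summed to 6.17 to 6.26 log2 units at 24 h and 6.31 to 6.41 at 0 h, with 0 of 5 called by limma (2 lower at an unadjusted p under 0.05). All 6 macrophage markers were called lower on these arrays (median change -2.31), and their part in the result was not tested. Of all genes 19.3% were called higher and 10.8% lower on the exon arrays.

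Siglech and Cd33 were not called on the exon arrays. Siglech had 4.29, 4.64 and 4.73 at 24 h and 4.98, 4.80 and 4.53 at 0 h, and the groups overlapped (change -0.21, 95% interval -0.62 to 0.20, adjusted p = 0.445, limma). Cd33 had 9.19, 8.94 and 8.78 against 9.03, 8.92 and 9.05, also overlapping; its change was -0.03 (95% interval -0.33 to 0.27, adjusted p = 0.911), and was 0.067 without 24 h array 3. A p above the threshold does not show that the levels were equal.

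**Figure D2:**
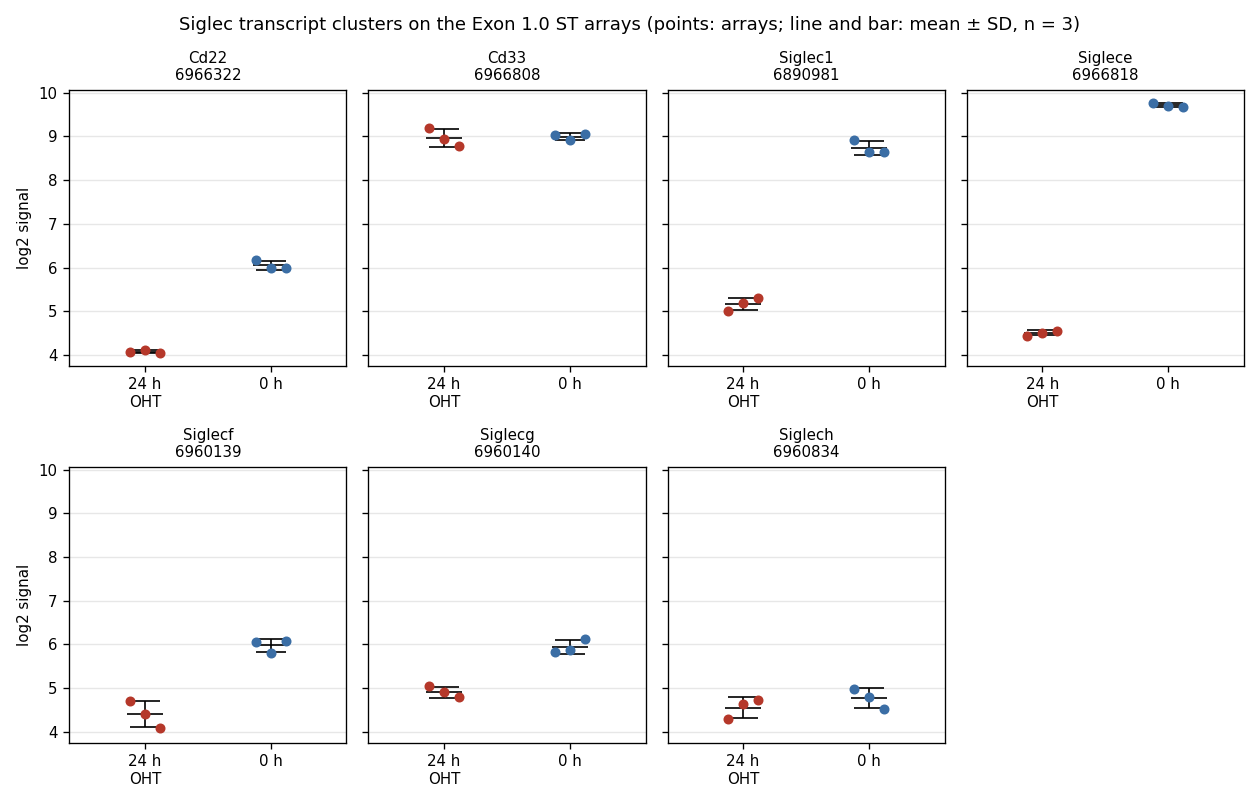
Log2 signal of the 7 Siglec transcript clusters on the exon arrays, with 24 h OHT left and 0 h right in each panel; points are single arrays and the bars are the mean ± SD of 3 arrays. Siglece lies near 4.51 at 24 h and 9.71 at 0 h, and Siglec1 near 5.17 and 8.74.

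All 7 genes had opposite signs on the designs, as had 3713 of the 3770 genes called on both. Cd33 was called on neither design and Siglech not on the exon arrays, so their signs are uncertain. The other 5 (Cd22, Siglec1, Siglece, Siglecf and Siglecg) were called on both, higher on the 430 arrays and lower on the exon arrays labelled 24 h. Of all 13356 genes 27.8% were called on both in opposite directions and 9.54% in that combination. In a joined limma model the change on the 430 arrays minus that on the exon arrays was called for 6 of the 7 genes, where 58.0% of all genes are called, and above 0 for all 6, where 26.3% are: 7.25 ± 0.143 log2 units for Siglece, 5.22 ± 0.196 for Siglecf, 4.41 ± 0.134 for Cd22, 3.96 ± 0.129 for Siglec1, 1.83 ± 0.179 for Siglecg and 0.44 ± 0.173 for Siglech (SE, adjusted p from 7.90e-15 to 0.0423). Cd33 was not called in it (0.10 ± 0.131, adjusted p = 0.517), but was with quantile normalization (0.39, adjusted p = 0.00831). The Siglech difference was lost in most alternatives, among them the removal of array medians (0.38, adjusted p = 0.0911). Since the signs are opposite for all 7 genes, this difference adds the sizes of both changes and is not separate evidence.

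For some of the 7 genes the measured changes also differ in size between the designs, whatever the exon labels. Each design reads a gene with its own features, and their part in these sizes was not tested. The sum of both changes, which is 0 where they are equal in size and opposite, was called for 4 of the 7 genes, against 22.8% of all genes (12.6% above 0 and 10.3% below). That share also covers genes that were called on neither design. It was below 0, with the exon change larger, for Siglec1 (-3.20 ± 0.129, adjusted p = 1.71e-09, limma) and Siglece (-3.17 ± 0.143, adjusted p = 4.21e-09). It was above 0, with the 430 change larger, for Siglecf (2.08 ± 0.196, adjusted p = 8.22e-06) and for Cd22 (0.46 ± 0.134, adjusted p = 0.0228). For Siglecg the sum was -0.24 and for Cd33 and Siglech 0.05 and 0.01, none called (adjusted p = 0.375, 0.82 and 0.968). This model takes for each gene its brightest probe set, which is 1427706_a_at for Siglec1 and 1419768_at for Cd22. The Cd22 sum rests on that choice: it was -0.03 with 1419769_at and 0.22 with the mean of both (adjusted p = 0.922 and 0.276). For Siglec1 it stayed below 0 and called with each probe set and with their mean (-3.34 to -2.52).

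**Figure D3:**
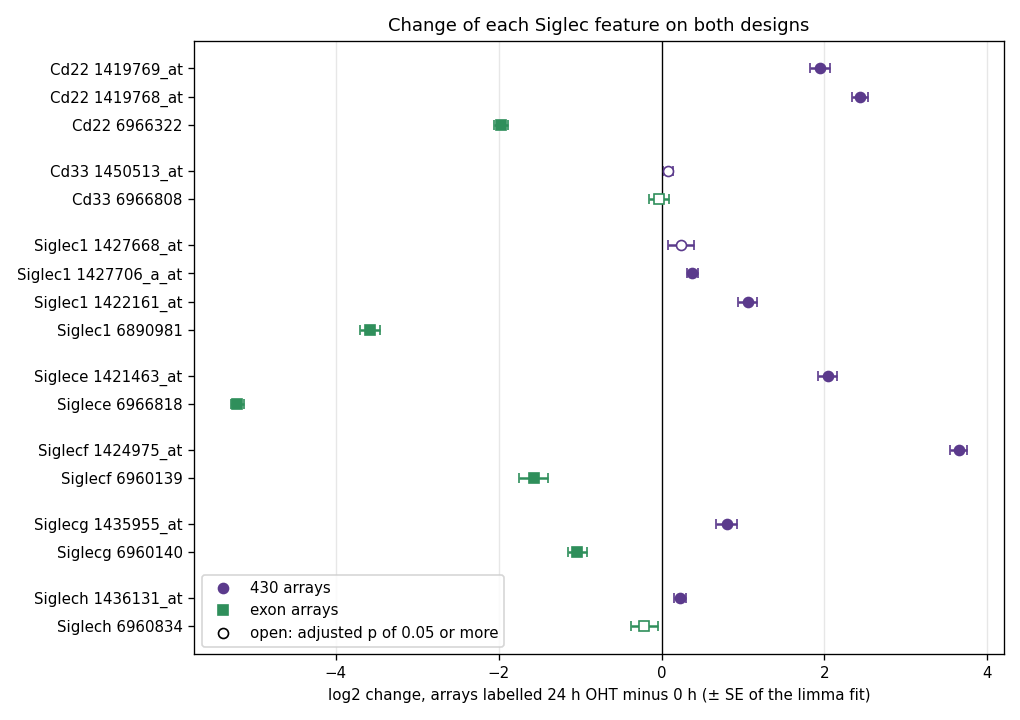
Log2 change, arrays labelled 24 h OHT minus 0 h, of every Siglec feature with the SE of the limma fit; circles are 430 probe sets, squares exon transcript clusters, and open symbols were not called. Circles lie right of 0 and squares left of it, Siglece reaching -5.21 on the exon arrays and Siglecf 3.65 on the 430 arrays.

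Among genes on both designs, those whose 12 values lay closest to Siglece were Il1r1 (the interleukin-1 receptor), Slc16a14 (a member of the monocarboxylate transporter family), Tlr8 (an endosomal RNA sensor), Pld4 (an exonuclease of endolysosomes) and Bco2 (a carotenoid-cleaving enzyme). Closeness was the Euclidean distance over the 12 arrays with each gene centred within its design, and it was 1.40 for Il1r1 and 1.97 for Bco2 log2 units. Il1r1 changed by 2.74 on the 430 and by -4.58 on the exon arrays, and Slc16a14 by 1.54 and -4.23. The genes were chosen by these same values, so the likeness of their changes to those of Siglece is not a separate result.

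Neighbouring genes were looked at because all members but Siglec1, which is on chromosome 2, lie on chromosome 7. Siglecf, Siglecg, Cd33 and Siglece lie close together there, while Cd22 and Siglech lie apart from them. Of 12 protein-coding genes next to a member and not themselves members, 9 are on both designs, and 4 of these were called higher on the 430 and lower on the exon arrays labelled 24 h, a combination found in 9.54% of all genes. Zfp715, beside Siglecf, and Tubgcp5, beside Siglech, were called on the 430 arrays (0.77 and 0.52) and not on the exon arrays (-0.26 and -0.11, adjusted p = 0.144 and 0.562, limma). Ceacam18 and Ctu1 flank Siglece and changed by 0.62 and 0.71 on the 430 arrays and by -1.21 and -1.02 on the exon arrays. Zfp658, beside Cd33, changed by 0.88 and -0.77. Mag lies beside Cd22 and encodes myelin-associated glycoprotein, a Siglec of myelinating glia that the naming rule leaves out; it changed by 0.59 ± 0.121 on the 430 and by -0.59 ± 0.093 on the exon arrays (SE, adjusted p = 0.00381 and 0.00584, limma).

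Partners through which Siglecs signal formed a list of 12. Of 10 measured signalling partners 6 were called higher and 1 lower on the 430 arrays labelled 24 h (26.0% and 26.1% of all genes), with a median of 0.34 against 0.06 over all genes, and 1 was higher and 4 lower on the exon arrays (19.3% and 10.8% of all genes), with a median of -0.28 against 0.01. Tyrobp, the adaptor DAP12 of Siglec-H, had 430 signals of 12.72 ± 0.0531 log2 units at 24 h and 5.44 ± 0.0896 at 0 h, while its exon signals were 3.96 ± 0.354 at 24 h and 9.98 ± 0.0577 at 0 h (SD, n = 3). Ptpn6, the phosphatase SHP-1 that ITIMs recruit, changed by 1.68 ± 0.0686 on the 430 and by -1.73 ± 0.0949 on the exon arrays (SE, adjusted p = 1.86e-07 and 0.000159, limma). Ptpn11, the phosphatase SHP-2, was not called on either design (-0.10 and 0.23, adjusted p = 0.221 and 0.147). Inpp5d, the lipid phosphatase SHIP-1, changed by 0.30 and -0.58. Socs3, a suppressor of cytokine signalling that binds human CD33, ran the other way, at -0.75 and 0.48.

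Glycoproteins that carry sialic acid and have been described as Siglec counter-receptors were called in most cases. On the 430 arrays 6 of 9 were higher and 2 lower (median 0.48), beside 26.0% and 26.1% of all genes, and on the exon arrays 1 of 8 was higher and 6 lower (median -0.71), beside 19.3% and 10.8%. Ptprc, the phosphatase CD45 that CD22 binds, changed by 9.38 on the 430 and by -6.90 on the exon arrays, and Cd52, a small glycoprotein whose soluble form binds human SIGLEC10, by 5.95 and -6.24. Itgam, the CD11b integrin chain, changed by 2.70 and -2.78. Spn, the sialomucin CD43, ran opposite to these with -1.19 ± 0.0953 and 1.38 ± 0.119 (SE, adjusted p = 1.06e-05 and 0.000689, limma). Cd24a, a mouse Siglec-G ligand, was on the 430 arrays not called (-0.10, adjusted p = 0.414).

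Sialic acid is made by a short pathway of cytosolic and nuclear enzymes. Of 6 synthesis genes limma called 0 higher and 3 lower on the 430 arrays (median -0.20), and of 5 on the exon arrays 3 higher and 0 lower (median 0.42); at an unadjusted p under 0.05 the counts were the same. Of all genes 26.0% were higher and 26.1% lower on the 430 arrays, and 19.3% and 10.8% on the exon arrays. Gne, the enzyme that starts sialic acid synthesis, changed by -1.12 ± 0.0624 and 0.65 ± 0.0869, and Cmas, which activates the sugar, by -0.42 ± 0.0628 and 0.61 ± 0.0816 (SE). Cmah, which converts the common sialic acid to its N-glycolyl form, was not called on either design (adjusted p = 0.987 and 0.726, limma).

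Sialyltransferases attach the sugar to glycans. Of 20 genes 6 were higher and 3 lower on the 430 arrays (median 0.14), and 2 were higher and 2 lower on the exon arrays (median 0.06). These counts are near or below the shares of all genes, which are 26.0% higher and 26.1% lower on the 430 and 19.3% and 10.8% on the exon arrays. St6gal1, which makes the alpha-2,6 linkage that CD22 prefers, changed by 1.86 ± 0.125 and -0.33 ± 0.0795, while St6galnac4 changed by -1.47 ± 0.113 and 1.02 ± 0.16 (SE). St3gal4 changed by 0.42 and -0.39. Among genes that remove or recycle sialic acid 3 of 8 were higher and 1 lower on the 430 arrays (median 0.18), and 1 of 9 was higher and 2 lower on the exon arrays (median 0.01), against the same shares of all genes. Neu1, the lysosomal sialidase, changed by 0.32 and -0.61, and Ctsa, the protective protein of that enzyme, by 0.75 and -0.72.

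**Figure D4:**
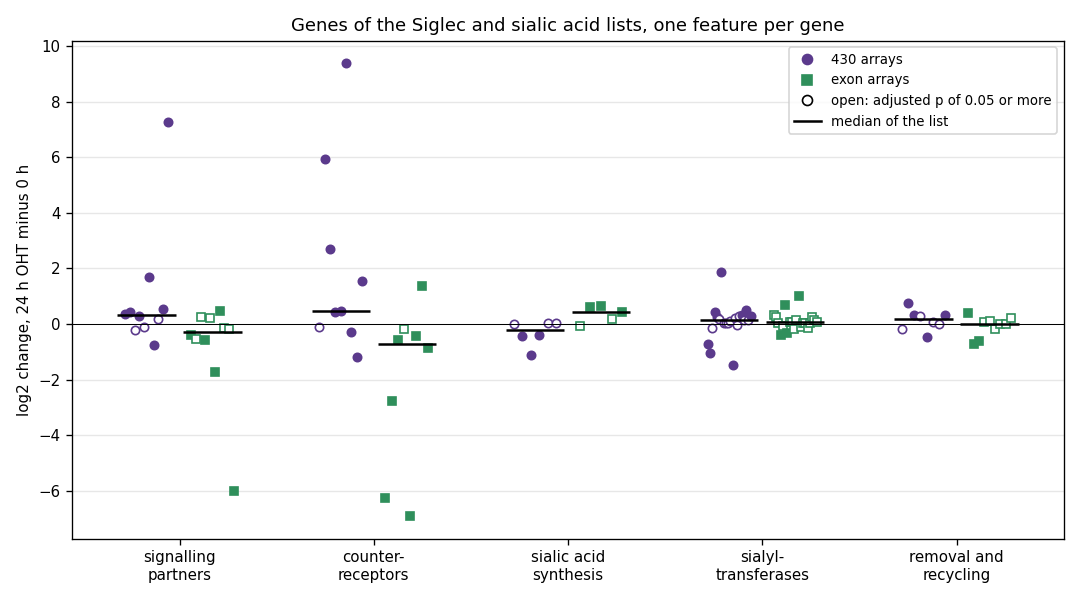
Log2 change, 24 h OHT minus 0 h, of the genes in 5 lists around the Siglecs, with 1 feature a gene; circles are the 430 arrays, squares the exon arrays, open symbols were not called and lines are medians. The widest changes are those of Ptprc, Tyrobp and Cd52, while most sialyltransferases lie within 1 log2 unit of 0.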

How the data were processed

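RNA of PUER cells was measured on 12 arrays. The authors deposited log2 signals, 1 table per design, from Affymetrix Expression Console per the submitters' processing notes, which name build mm8 for the exon arrays; no source used here gives the summarization. The labels' protocols give a whole-transcript sense-target labelling for the 430 arrays as for the exon arrays, which is unusual for that design, and its effect on the 430 signals was not tested. Signals ran from 2.43 to 15.02 on the 430 and from 0.649 to 13.89 on the exon arrays. Control probe sets (64) were left out. Of the probe sets 34945 have 1 symbol, 932 several and 9160 none, and of the transcript clusters 14939, 989 and 7310. Members were taken by platform symbol. Other symbols were updated through Entrez identifiers to RefSeq (34741 and 14884 matched), and each other gene was read by its brightest feature.

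Arrays labelled 24 h were compared with those labelled 0 h with limma 3.58.1 under R 4.3.3 (two-sided moderated tests from lmFit and eBayes), and a joined model compared the designs. An exact permutation test of 3 arrays against 3 cannot go below p = 0.1. The fit was tested on simulated data. No detection calls were used, and the number of arrays limits the precision. Named genes were all members, up to 4 genes a list called on both designs with the largest mean change, the 5 genes closest to the member with the largest mean change, and the members' neighbours; Ptpn11, Cmah, Cd24a and the marker genes were named after their values were seen. Members and lists were chosen with earlier results of these data known.

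Results were recomputed after quantile scaling, after subtraction of each array's median, without dim features, with a variance trend on intensity (robust), with replicate number as block, without each array in turn, with a minimum log2 change of 1 and with a gene's features averaged. Exchanging the exon labels, and reading Cd22 and Siglec1 by each probe set or by their mean in the sum of changes, were chosen after seeing the data.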

Additional observations from a re-analysis of the deposited data

Results flagged for a closer look

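For 6 Siglec genes the change between arrays labelled 24 h and 0 h differed between the designs by the test of that difference. The 430 change minus the exon change was 7.25 log2 units for Siglece, 5.22 for Siglecf, 4.41 for Cd22, 3.96 for Siglec1, 1.83 for Siglecg and 0.44 for Siglech. The same test called 58.0% of all genes on both designs. Where the signs are opposite, as for these 6 genes, it adds the sizes of both changes. The test does not say which design carries the direction of the culture.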

How the results depend on the processing

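Of 314 recomputed changes of single features or genes, 285 kept their direction and their side of the threshold, 21 lost the call, 3 gained it and 5 reversed; 16 of 26 results kept both in all alternatives run. Without features below the median level, fewer were tested: 4 of 5 Siglec probe sets were called on the 430 arrays, 3 of 4 clusters on the exon arrays and 3 of 4 differences between designs. Siglecf, with the largest 430 change, was not tested on either design under this filter, and Cd22 was not tested on the exon arrays. The shares of all features called under it are not given here, so these counts have no background. With a log2 change of at least 1, 5 probe sets were called. Leaving out single arrays gave 7 to 8 called probe sets, 5 clusters throughout and 5 to 6 differences. On the 430 arrays 0 probe sets were called lower in any alternative run. Cd33 on the exon arrays ranged from -0.13 to 0.067 without single arrays, reversing without 24 h array 3 (adjusted p = 0.754), and was not called in any. With the exon labels exchanged, the 430 change minus the exon change becomes, by construction, the sum of both changes as labelled. It was then -3.20 for Siglec1, -3.17 for Siglece and -0.24 for Siglecg, and Siglech lost its call (0.01). These reversals and this loss follow from the exchange and are among those counted above. The sum of both changes of Cd22 reversed to -0.027 with probe set 1419769_at. Deviations of same-numbered arrays from their group means correlated little (r from -0.055 to 0.13). Noise between arrays could hide a pairing, so these values cannot tell whether the numbers pair samples. With the replicate block 8 probe sets, 5 clusters and 5 differences were called by limma, the Siglech difference being lost (adjusted p = 0.0888). For the other reversals and lost calls the cause was not tested. Signal near the low end of a design, as for Siglecf on the 430 arrays labelled 0 h, limits how well a fold can be sized.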

Other observations

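Markers of further cell types were measured on the same arrays. Of 6 myeloid progenitor markers 1 was higher and 2 lower on the 430 arrays labelled 24 h, and 2 were higher and 1 lower on the exon arrays. On the 430 and exon arrays Myb changed by -3.05 and 2.60, Kit by -2.37 and 2.08, and Mpo by 0.90 and -1.06. Of 5 T-cell markers 3 were higher on the 430 arrays (Cd3d by 0.39, Cd4 by 0.36 and Cd8a by 0.26). On the exon arrays limma called 0 of them (0 at an unadjusted p under 0.05). Of the mast cell and basophil markers 1 of 6 was higher and 2 lower on the 430 arrays, and 2 of 5 were higher on the exon arrays. The shares of all genes were 26.0% higher and 26.1% lower on the 430 arrays, and 19.3% and 10.8% on the exon arrays.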
